A study of Mus musculus with 9 samples.

Results

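Chronic restraint stress was examined as a single contrast across both genotypes, with the 6 stressed mice pooled and set against the 3 unstressed controls. All 9 mice of the series entered the contrast, each with its own RNA sequencing library from the medial prefrontal cortex (mPFC). The controls (CT) and the stressed wild-type mice (WT_ST) carried the wild-type Fkbp5 gene, and the other stressed mice (KO_ST) were Fkbp5 knock-outs, with 3 mice in each group. The labels give the strain of all mice as C57BL/6 and the methods as C57BL/6J, the knock-out line having been backcrossed for 10 generations. Stress consisted of restraint for 6 h a day over 21 days. The labels give an age of 11 weeks for every mouse, and the methods of the study give 8 weeks. No unstressed knock-out mice were sequenced, so in KO_ST the effects of stress and of genotype cannot be told apart, and a change was looked for that appeared in both stressed groups. Genes were chosen by their reads alone: 14370 of the 24532 listed genes averaged at least 30 reads over the 9 mice and were tested.

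FKBP5, whose gene is targeted in KO_ST, is a co-chaperone that lowers the affinity of the glucocorticoid receptor for its hormone. Its transcript was still counted in the knock-outs, with 625, 855 and 907 reads for Fkbp5, and which part of the gene is deleted was not examined. Adrenal glucocorticoids released under stress reach the brain and induce genes such as Sgk1, Tsc22d3, Per1 and Fkbp5 itself. The mPFC also holds microglia, the resident macrophages of the brain, which depend on the receptor CSF1R for survival. Neurons and astrocytes make cholesterol locally through the mevalonate pathway, whose genes are switched on together by the transcription factor SREBP2 when sterols run low.

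Between 43778471 and 61150128 reads were counted per mouse, with 48929425 to 61150128 in CT and 43778471 to 51209381 in the stressed mice, so the deepest libraries were controls. Levels are given as FPKM, the fragments per kilobase of transcript scaled to the mapped fragments of the library. The targeted gene Fkbp5 (chr17:28398753-28486149, GRCm38) ranged from 6.46 to 7.61 in CT, 9.47 to 10.2 in WT_ST and 3.60 to 4.68 in KO_ST. Its 2 stressed groups lay on opposite sides of CT, and pooled they differed from CT by -0.08 ± 0.29 on the log2 scale (SE, adjusted p = 0.942, limma). Cortical neuron genes were present at similar levels, and the deep-layer list averaged 4.22 to 4.35 in CT and 4.21 to 4.39 in the stressed mice as mean log2(FPKM+1). RNA from whole tissue was measured, so fewer cells of a type and less RNA per cell cannot be told apart in any result given here.

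Levels were compared as quantile-normalized log2(FPKM+1), and every log2 difference is the stressed mean minus the CT mean on that scale. A gene was called at an unadjusted p under 0.05 in limma's moderated test with a fold change above 1.2, and "rose" and "fell" are used only for called genes. A gene was termed separated when all 6 stressed mice lay on one side of all 3 CT mice. By these criteria 361 genes were called (2.51%), 155 higher (1.08%) and 206 lower (1.43%) in the stressed mice. Separation was found for 791 genes (5.50%), 395 higher (2.75%) and 396 lower (2.76%). For a gene without ties, 2 of the 84 ways to split 9 mice into 3 and 6 are separated, so chance alone yields some. Both criteria were met by 150 genes (1.04%), 54 higher (0.376%) and 96 lower (0.668%), with a median increase of 0.34 and a median decrease of -0.35. Without quantile normalization 157 genes met both criteria, and 24.2% of them were higher in place of 36.0%. No gene passed an adjusted p of 0.05 over all tested genes with limma and Benjamini-Hochberg adjustment. The lowest adjusted p was 0.161, and 1679 genes had an unadjusted p under 0.05 where 718.5 would be expected by chance. On the read counts edgeR also found 0 genes at that level and DESeq2 166, but DESeq2 made more false calls in simulated data. The changes described here are therefore modest in size, and each rests on 3 control mice.

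**Figure D1:**
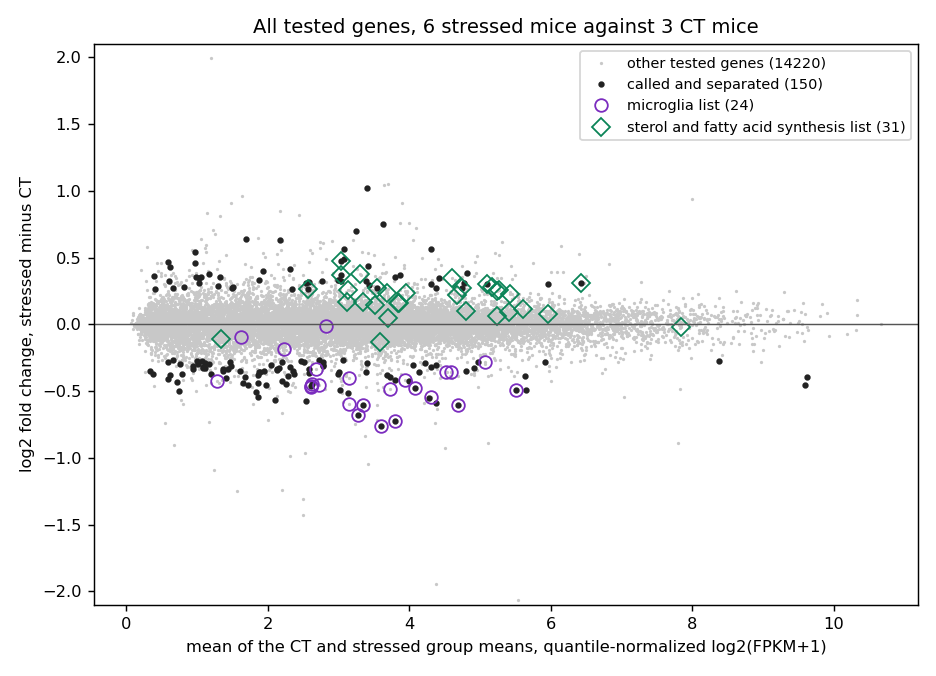
Log2 fold change of stressed mice against CT (vertical axis) plotted against the mean quantile-normalized log2(FPKM+1) (horizontal axis) for each tested gene, with the 150 genes that were both called and separated in black. All 24 microglia genes (circles) lie below 0 and 28 of the 31 sterol and fatty acid genes (diamonds) lie above it, and 3 genes fall outside the plotted range.

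Microglia genes made up the most uniform group among the decreases. All 24 genes of the microglia list had a lower mean in the stressed mice, where 49.0% of all tested genes did, and 13 of them fell, against 1.43% of all genes. The 9 that were also separated included Fcrls, Cx3cr1, Olfml3, Csf1r, Selplg, P2ry12, Itgam and P2ry13. The median log2 difference of the list was -0.46, beside 0.00 for all genes. As a mean over its genes the list lay at 3.52 to 3.82 in CT and at 2.58 to 3.47 in the stressed mice on the log2(FPKM+1) scale, so no stressed mouse reached the lowest control. On the read counts DESeq2 placed Fcrls and Olfml3 at an adjusted p under 0.05 (0.0223 and 0.0202), against 84 lower of all 14370 genes. By edgeR 0 genes of the list were placed there.

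Fcrls (Entrez gene 80891, chr3:87250736-87263765), an Fc receptor-like gene used as a microglia marker, had FPKM values of 14.8, 13.9 and 15.9 in CT, from 404 to 1843 reads per mouse over the 9 libraries. It stood at 11.3, 8.79 and 7.86 in WT_ST and at 4.53, 8.10 and 10.4 in KO_ST. Every stressed mouse was below every control, and Fcrls fell by 0.76 ± 0.20 (SE) on the log2 scale (adjusted p = 0.267, limma). Cx3cr1, the fractalkine receptor through which neurons signal to microglia, was at 15.9, 15.6 and 19.4 in CT, 12.1, 11.9 and 11.6 in WT_ST, and 5.09, 8.48 and 11.7 in KO_ST. It fell by 0.72 ± 0.22 (adjusted p = 0.314, limma), and the 3 WT_ST mice were nearly alike while the KO_ST mice were spread more widely.
Csf1r, the receptor for the survival factor CSF1, was at 28.8, 29.1 and 34.7 in CT, and its 6 stressed values ran from 10.1 through a median of 21.9 to 27.0 (log2 difference -0.60 ± 0.25, adjusted p = 0.390, limma). The highest stressed mouse, KO_ST replicate 3, came close to the lowest control for this gene. Csf1r was called in 5 of the 9 fits that each left out a mouse, and not without CT replicate 1, 2 or 3 or without KO_ST replicate 2. P2ry12 and P2ry13, purinergic receptors that sense ATP and ADP, fell by 0.47 and 0.44, P2ry13 being called in 4 of these 9 fits. Itgam, which encodes CD11b, fell by 0.46, Selplg, the ligand of P-selectin, by 0.60 and Olfml3, a secreted protein, by 0.68. Tmem119, C1qa, Tyrobp and Cd68 fell as well but overlapped between the groups after normalization. At the other end Aif1, which encodes IBA1, had a log2 difference of only -0.01 and Cd53 of -0.09, with stressed and control values mixed.

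The decrease was present in both stressed groups, with a larger mean decrease in KO_ST. As means over the list WT_ST lay at 3.25 to 3.47 and KO_ST at 2.58, 3.06 and 3.46, so these 2 groups overlapped. Against CT, 23 of the 24 genes had a lower mean in WT_ST (48.7% of all genes did) and 23 in KO_ST (49.0%), with medians of -0.30 and -0.64 from comparisons that share the CT mice. In WT_ST 13 genes were called lower (1.32% of all genes) and in KO_ST 18 (2.03%). KO_ST was lower than WT_ST for 23 of 24 genes, where 50.7% of all tested genes were. Of these, P2ry12 and Slc2a5 were called between the stressed groups as lower in KO_ST (log2 differences -0.42 and -0.67, against 1.05% of all genes), and the lowest adjusted p of the list there was 0.706 (limma). KO_ST replicate 1 had the lowest FPKM of all 9 mice for 22 of the 24 genes. In the pooled contrast without that mouse 23 genes remained lower, 13 were called and the median was -0.34. KO_ST was not compared with WT_ST without it. CT replicate 3 was the highest mouse for 22 genes. Without CT replicate 3 the pooled contrast had 23 lower genes and a median of -0.39. Its count of called genes dropped to 4, and it was 8 without CT replicate 1.

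**Figure D2:**
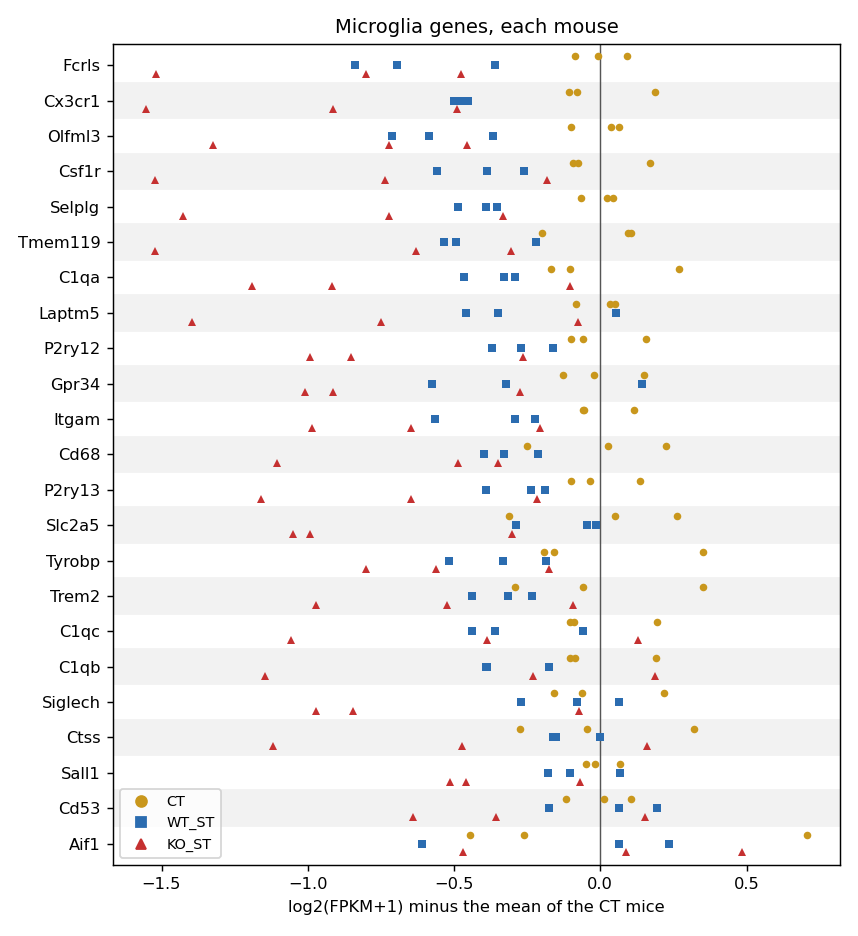
Log2(FPKM+1) of genes of the microglia list in each mouse, relative to the mean of the 3 CT mice (vertical line), for CT (circles), WT_ST (squares) and KO_ST (triangles), ordered by the pooled difference. The squares and triangles lie to the left of every circle for the separated genes, and KO_ST replicate 1 is the leftmost point for nearly all genes.

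Among genes both called and separated, the largest decreases outside the list included Vsir, an immune checkpoint protein. Its FPKM was 5.61 to 6.92 in CT and 2.07 to 4.91 in the stressed mice. Cyba, a subunit of the NADPH oxidase of phagocytes, was at 4.21 to 4.41 in CT and 1.06 to 3.62 in the stressed mice. Neither gene overlapped between the groups, and Vsir and Cyba fell by 0.57 and 0.56 on the log2 scale. Lpcat2, an enzyme of platelet-activating factor synthesis, fell by 0.54 and Bin2, a phagocyte adaptor, by 0.50. Fcer1g (-0.49), Cd37 (-0.44), Itgb2 (-0.40), Lgals9 (-0.38) and Irf5 (-0.37) belong to the 96 genes that both fell and were separated and were picked for mention after their values were seen. Of 18 interferon response genes and of 20 NF-kappaB pathway genes 0 were called by limma, where 2.51% of all genes were. By edgeR 0 of these genes were called too, but without CT replicate 1 limma called 2 interferon genes higher and without CT replicate 3 it called 1 NF-kappaB gene lower. Of 13 antigen presentation genes 10 had a lower mean (49.0% of all genes had), with a median of -0.06. Without CT replicate 3 or without KO_ST replicate 1, 8 were lower and 5 higher, and leaving out each mouse gave medians from -0.12 to -0.017. Of these 13 only H2-D1 was called by limma, as higher, at 14.5 to 25.4 in CT and 20.02 to 35.4 in the stressed mice (log2 difference 0.45). It was called in 3 of the 9 fits that each left out a mouse, and edgeR and DESeq2 called 0 genes of the list.

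The transcription factor PU.1, which specifies macrophages, binds purine-rich sites around the letters GAGGAA. The promoter windows of RefSeq (GRCm38.p6, from 250 bases before to 50 bases after the start, both strands) were searched for these letters because the genes of the list moved together. They were found for 12 of the 17 microglia genes with a window (70.6%) and for 31.3% of 27025 genes in all, and this is a description of the sequence and not of binding. The 12 included Aif1 and Cd53, which were not called, and whether a match goes with a decrease was not tested. Stretches around the match are shown for Fcrls (chr3:87263603-87263728, minus strand) and Itgam (chr7:128062565-128062639, plus strand), both of which fell, with the match in capitals and, for Itgam, on the opposite strand as TTCCTC.
Fcrls: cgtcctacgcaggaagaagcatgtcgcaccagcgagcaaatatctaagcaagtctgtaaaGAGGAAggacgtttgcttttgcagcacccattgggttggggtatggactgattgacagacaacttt
Itgam: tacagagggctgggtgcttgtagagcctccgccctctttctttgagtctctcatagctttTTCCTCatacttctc

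Astrocyte genes included 4 that fell. Of 19 astrocyte genes 14 had a lower mean (49.0% of all genes had), 4 fell (Aqp4, Apoe, Slc1a3 and Clu, against 1.43% of all genes) and 4 were separated (Apoe, Clu, Mlc1 and Slc7a10, against 2.76%). The median log2 difference was -0.13. Without CT replicate 3, 2 astrocyte genes were called lower and 2 higher, with a median of -0.075. Apoe, the lipid carrier that astrocytes secrete, was at 762, 1118 and 800 in CT and at 626 to 766 in the stressed mice, and fell by 0.45 ± 0.14 (adjusted p = 0.314, limma). The difference rested on the high CT replicate 2: without it the log2 difference was -0.22 and the gene was not called. Its groups were separated only after quantile normalization. Clu, which encodes the secreted chaperone clusterin, was at 338, 388 and 364 in CT and 286 to 313 in the stressed mice, with no overlap (log2 difference -0.28 ± 0.05, adjusted p = 0.186, limma). Aqp4, the water channel of astrocyte endfeet, was at 12.8 to 15.6 in CT and spread from 7.24 to 14.8 in the stressed mice, and was called in 4 of the 9 fits without a mouse. Gfap, the filament protein that rises in reactive astrocytes, was not called, at 17.3 to 23.4 in CT and 19.6 to 35.7 in the stressed mice. The mean level of the list was 5.90 to 6.03 in CT and 5.77 to 5.99 in the stressed mice, so for the whole list the groups overlapped.

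Cst3 and Fabp7 also fell. Cst3 (Entrez gene 13010, chr2:148871722-148875512), which encodes the protease inhibitor cystatin C and is abundant in astrocytes and microglia, was picked after its values were seen for its low p. It was at 882, 889 and 890 in CT, 674, 683 and 688 in WT_ST, and 661, 712 and 744 in KO_ST. Cst3 fell by 0.39 ± 0.05 (adjusted p = 0.161, limma), and the 3 controls lay within a range far narrower than the gap to the stressed mice. Fabp7, a fatty acid carrier of astrocytes and radial glia, was at 21.9, 27.8 and 24.5 in CT and at 13.4 to 18.6 in the stressed mice. It fell by 0.59 ± 0.10 (adjusted p = 0.186, limma), and the log2 difference was -0.54 in WT_ST and -0.63 in KO_ST. Hes5, a Notch target that keeps neural progenitors undifferentiated, was at 7.80, 11.3 and 10.03 in CT and 5.71 to 7.34 in the stressed mice, and fell by 0.52 ± 0.10 (adjusted p = 0.244, limma). Usp2, a deubiquitinase with a daily rhythm, fell by 0.55 ± 0.11, from 20.3 to 24.2 in CT to 13.4 to 19.9 in the stressed mice. These 4 genes were separated, and none of them was called between KO_ST and WT_ST.

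The other glial and vascular lists held called genes among oligodendrocyte precursors, endothelium and meningeal fibroblasts. Of 10 oligodendrocyte precursor genes 8 had a lower mean, and 3 (Neu4, C1ql1 and Gpr17, against 1.43% of all genes) fell by 0.26, 0.30 and 0.34. No precursor gene was separated, and 0 were called without CT replicate 3, 0 without WT_ST replicate 3 and 1 without KO_ST replicate 1. Of 20 genes of mature oligodendrocytes and myelin, 17 had a higher mean (51.0% of all genes had), with a median of 0.15. Of the 20, 0 were called by limma (2.51% of all genes were) or edgeR. Single controls decided this: without CT replicate 3, 13 were called higher with a median of 0.40, and without CT replicate 2 the median was -0.048 and 7 of the 20 were higher. The myelin list ranged widely within CT, from 3.60 to 4.40, and from 3.82 to 4.31 in the stressed mice. Of 19 endothelial genes 12 had a lower mean, 7 a higher one and 2 fell (against 1.43%), while 1 fell without CT replicate 2 or without CT replicate 3. Cldn5, the tight junction protein of the blood-brain barrier, was at 17.9, 21.6 and 17.8 in CT and 13.2 to 16.3 in the stressed mice, and fell by 0.36 ± 0.08 (adjusted p = 0.246, limma). Kdr, the VEGF receptor, fell by 0.31, and Pecam1 was separated with a log2 difference of -0.23. Ly6c1 was separated the other way, at 20.5 to 23.5 in CT and 24.8 to 27.4 in the stressed mice, and was not called (log2 difference 0.22). Of 12 mural cell genes 0 were called by limma (2.51% of all genes were) or edgeR, and at most 1 in each direction with a mouse left out. Of 13 meningeal fibroblast genes 10 had a higher mean (51.0% of all had), with a median of 0.26. Among them Mgp rose by 0.74 (1 gene, against 1.08% of all) and Col1a2 fell by 0.30 (1 gene, against 1.43%). Of the 9 fits that each left out a mouse, 3 called Mgp and 2 called Col1a2, and Mgp was not called by edgeR or DESeq2. Without CT replicate 1, 8 of the 13 were called higher (median 0.56), and 0 were without CT replicate 2, CT replicate 3, WT_ST replicate 1, WT_ST replicate 2, KO_ST replicate 2 or KO_ST replicate 3. The median was 0.10 without CT replicate 3, 0.14 without CT replicate 2 and 0.15 without WT_ST replicate 1.

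**Figure D3:**
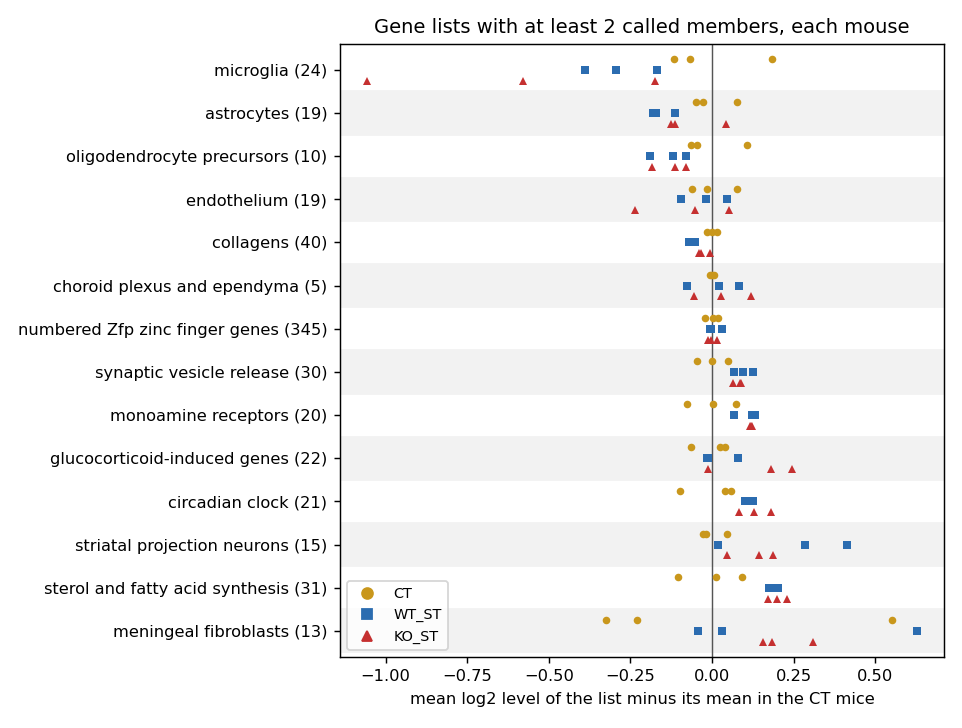
Mean quantile-normalized log2 level of each gene list with at least 2 called members in each mouse, relative to the mean of the CT mice (vertical line). CT is shown as circles, WT_ST as squares and KO_ST as triangles, and the number of tested genes follows each name. All stressed mice lie below the controls for microglia and oligodendrocyte precursors, and above them for sterol and fatty acid synthesis, the circadian clock and synaptic vesicle release.

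Sterol genes made up the most uniform group among the increases. Of the 31 genes of sterol and fatty acid synthesis 28 had a higher mean in the stressed mice (51.0% of all genes did), 10 rose, against 1.08% of all genes, and none fell. Separation was found for 13 higher genes (2.75% of all) and 1 lower gene. The mean level of the list was 4.12 to 4.32 in CT and 4.40 to 4.46 in the 6 stressed mice, so that on this scale the stressed mice lay within a narrow range above all controls. As summed FPKM the groups overlapped, at 839 to 967 in CT and 958 to 1022 in the stressed mice. The median log2 difference was 0.23 for the pooled mice and 0.23 and 0.22 for WT_ST and KO_ST, which share their controls, with 8 and 11 genes called higher (1.16% and 1.54% of all genes). On the read counts DESeq2 placed 9 of the genes, all higher, at an adjusted p under 0.05, against 82 higher of all 14370 genes, and edgeR 0. Between KO_ST and WT_ST the median was 0.01, 15 of 31 genes were lower in KO_ST and 0 were called by limma.

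The list was divided by step of the pathway, and the difference between steps was not tested. In the mevalonate pathway to squalene 8 of 8 genes were higher and 4 rose (against 1.08% of all genes), with a median of 0.27. Without CT replicate 2 the whole list held 3 called genes instead of 10. Hmgcs1 (Entrez gene 208715), the enzyme that makes HMG-CoA, was at 80.3, 64.8 and 85.1 in CT, 101, 93.9 and 91.1 in WT_ST and 101, 90.3 and 94.7 in KO_ST, and rose by 0.31 ± 0.08 (adjusted p = 0.246, limma). Mvd, Idi1 and Fdft1, which act later in the same route, rose by 0.27, 0.38 and 0.31, and Mvd and Fdft1 were separated.
From squalene to cholesterol 11 of 11 genes were higher and 3 rose (against 1.08%), with a median of 0.24. Sqle, the squalene epoxidase that commits the route to sterols, was at 23.1, 21.6 and 26.4 in CT and 27.2 to 30.1 in the stressed mice (log2 difference 0.27 ± 0.05, adjusted p = 0.244, limma). Of the 6 genes of uptake, transport and control 4 were higher and 3 rose (against 1.08%).

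Stard4, a cytosolic sterol carrier, was at 6.72, 5.41 and 6.86 in CT and 7.75 to 8.57 in the stressed mice, and rose by 0.37 ± 0.06 (adjusted p = 0.186, limma). Insig1, the sterol-sensing brake on SREBP, rose by 0.34 but overlapped with CT. The regulators themselves were not called, with log2 differences of 0.08 for Srebf2, which encodes SREBP2, and -0.13 for Srebf1, the separated lower gene of the list. Of the 6 genes of fatty acid synthesis 5 were higher and 0 were called by limma, with 38.8 to 41.4 in CT and 38.0 to 46.4 in the stressed mice for Fasn, the fatty acid synthase.
CT replicate 2 had the lowest FPKM of all 9 mice for 21 of the 31 genes. Without it 28 genes were still higher and the median was 0.14, whereas 17 were called without CT replicate 3.

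**Figure D4:**
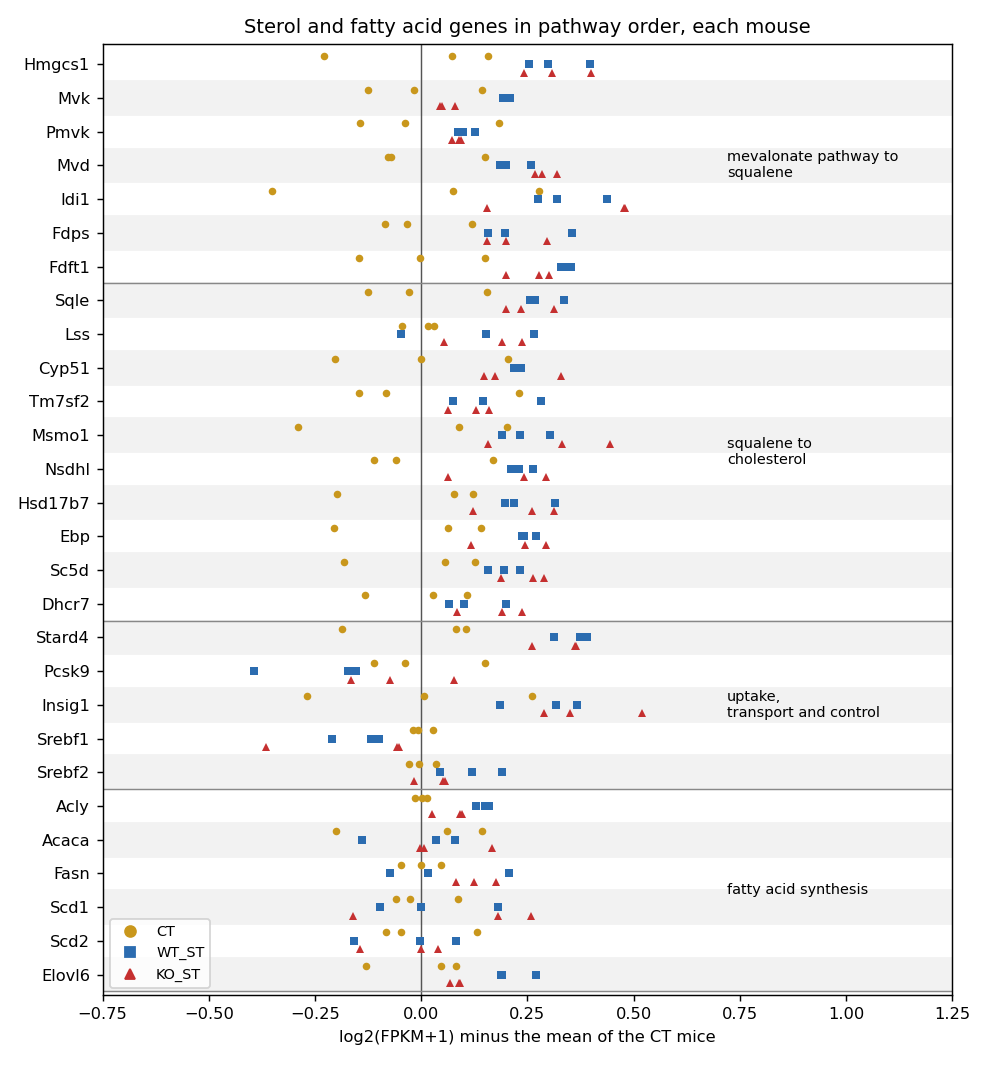
Log2(FPKM+1) of genes of the sterol and fatty acid list in each mouse, in pathway order and relative to the mean of the 3 CT mice (vertical line), for CT (circles), WT_ST (squares) and KO_ST (triangles). For the genes of the route to cholesterol nearly all stressed mice lie to the right of the line, CT replicate 2 is often the leftmost point, and the genes of fatty acid synthesis scatter around the line.

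SREBP2 binds sterol regulatory elements, here searched as TCACNCCAC on both strands of the same windows. A match was found for 1 of the 21 genes of the list that had a window (4.8%), against 1.44% of 27025 genes. The gene was Hmgcs1, whose plus strand is shown from chr13:119690154-119690282 with the match in capitals, 128 bases before the start.
Hmgcs1: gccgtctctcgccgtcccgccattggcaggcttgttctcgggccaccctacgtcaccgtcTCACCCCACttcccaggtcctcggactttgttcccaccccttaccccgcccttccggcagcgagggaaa

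Among the genes both called and separated, the largest increases lay outside these groups and differed in how evenly the mice shared them. Tspan14, a tetraspanin that assists the protease ADAM10 (Entrez gene 52588, chr14:40906427-40967073), was at 6.64, 6.14 and 6.69 in CT, 20.4, 6.71 and 19.8 in WT_ST, and 6.82, 19.9 and 19.4 in KO_ST. It rose by 1.02 ± 0.37 (adjusted p = 0.351, limma), but WT_ST replicate 2 and KO_ST replicate 1 stayed at the level of the controls and the other 4 stressed mice lay near a second level. Scn4b, a sodium channel subunit of fast-spiking neurons, was at 13.4, 3.87 and 11.8 in CT and 13.5 to 17.6 in the stressed mice (log2 difference 0.75 ± 0.28). Syt2, the fast calcium sensor of parvalbumin interneuron terminals, was at 2.23, 0.776 and 2.17 in CT and 2.50 to 3.90 in the stressed mice (log2 difference 0.64 ± 0.17). In both genes CT replicate 2 was far below the other controls, and so it was in Prss23, a serine protease, at 3.63 against 7.33 and 8.10. Without this mouse the differences were 0.26 for Scn4b, which was then not called, 0.37 for Syt2 and 0.26 for Prss23.

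Other increases did not rest on a single mouse, and Limk1, Glt1d1, Pgam2 and Met were called whichever mouse was left out. Limk1, the kinase that phosphorylates cofilin in actin remodelling at spines, was at 15.4, 13.4 and 17.8 in CT, 24.0, 18.5 and 22.5 in WT_ST, and 23.1, 26.8 and 24.4 in KO_ST. It rose by 0.56 ± 0.11 (adjusted p = 0.244, limma). Glt1d1, a putative glycosyltransferase, was at 5.57 to 8.24 in CT and 9.16 to 12.03 in the stressed mice and rose by 0.70 ± 0.12 (adjusted p = 0.186, limma). Neither gene overlapped between the groups. Pgam2, the muscle-type phosphoglycerate mutase of glycolysis, rose by 0.63 with 2.26 to 3.16 in CT and 3.21 to 5.72 in the stressed mice. Met, the hepatocyte growth factor receptor expressed in developing cortical circuits, rose by 0.54 from a low level, 0.355 to 0.983 in CT and 1.02 to 1.66 in the stressed mice.
Foxj1, the regulator of motile cilia, was at 0.224 to 0.413 in CT and 0.613 to 0.974 in the stressed mice and rose by 0.43. It was 1 of only 5 tested genes of 13 listed for choroid plexus and ependyma. Of these 5 genes 3 had a lower mean, 1 rose (Foxj1, against 1.08% of all genes) and 1 fell (Aqp1, a water channel, by 0.26, against 1.43%). Aqp1 was called in 5 of the 9 fits without a mouse. The summed level of the list was 62.3 to 76.4 in CT and 66.2 to 80.1 in the stressed mice.

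**Figure D5:**
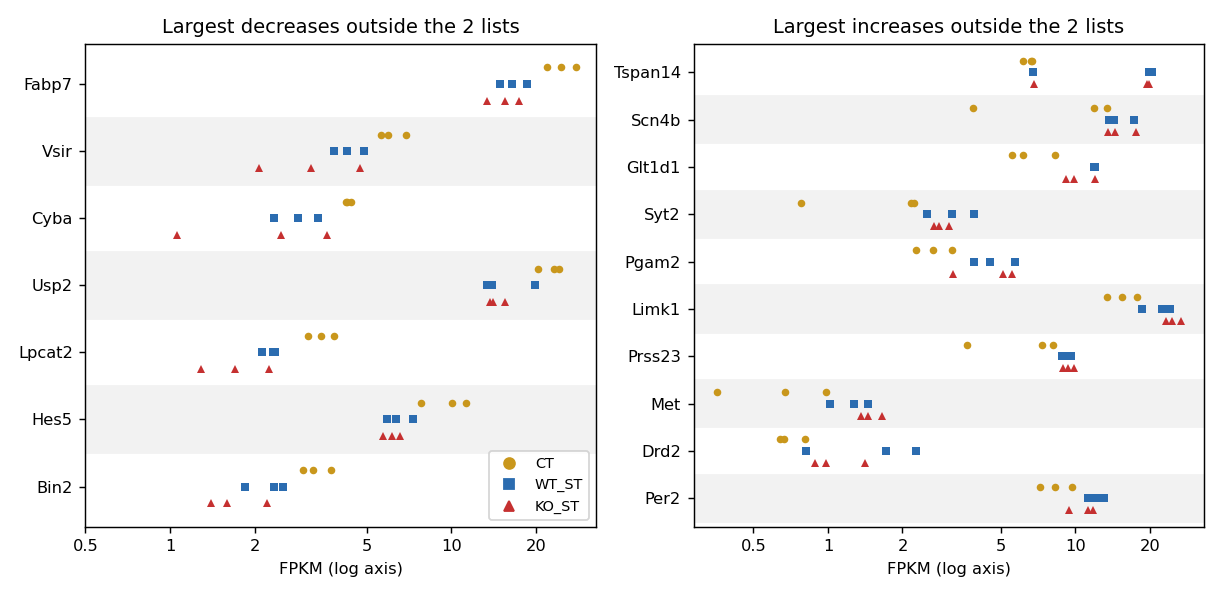
FPKM on a logarithmic axis of the genes with the largest decreases (left) and increases (right) among those both called and separated, without members of the microglia and sterol lists, in CT (circles), WT_ST (squares) and KO_ST (triangles). Tspan14 forms 2 levels among the stressed mice, 2 mice at 6.71 and 6.82 and 4 mice at 19.4 to 20.4, and CT replicate 2 stands far to the left for Scn4b, Syt2 and Prss23.

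Genes of the circadian clock included 2 that rose. Of 21 clock genes 16 had a higher mean (51.0% of all had), 2 rose (Per2 and Ciart, against 1.08% of all genes) and 4 were separated as higher (Per2, Cry1, Per1 and Bhlhe41, against 2.75%), with a median of 0.15. Without CT replicate 2, 14 clock genes were higher and 7 lower, with a median of 0.053, and 1 was called. Per2, a repressor of the clock (Entrez gene 18627, chr1:91415977-91459351), was at 8.29, 7.201 and 9.68 in CT, 11.2, 13.1 and 12.1 in WT_ST, and 11.8, 11.2 and 9.43 in KO_ST. It rose by 0.44 ± 0.10 (adjusted p = 0.244, limma). After quantile normalization the groups did not overlap, but in the deposited FPKM KO_ST replicate 3 was slightly below CT replicate 3. Of the 150 genes that were called and separated 141 were also separated in the deposited FPKM, 46 higher and 95 lower.
Cry1, the partner repressor, was at 4.61, 4.84 and 4.88 in CT and 5.08 to 6.38 in the stressed mice (log2 difference 0.23), and Per1 at 17.1 to 17.7 in CT and 18.1 to 24.1 in the stressed mice (log2 difference 0.22). Neither reached the fold threshold. Arntl, which encodes the activator BMAL1 and normally runs opposite to the Per genes, had a log2 difference of -0.24, again under the threshold, at 13.8 to 15.8 in CT and 10.8 to 14.0 in the stressed mice. The mean level of the list was 3.91 to 4.07 in CT and 4.09 to 4.19 in the stressed mice. As summed FPKM the groups overlapped, at 470 to 509 in CT and 508 to 531 in the stressed mice. Without CT replicate 2 the median of the list was 0.05 and 1 gene was called. Clock genes depend on the hour of death, which is not given in the sources used here, and its part in these differences was not tested.

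The activators CLOCK and BMAL1 bind E-boxes, searched as CACGTG. These letters were found for 5 of 18 clock genes with a window (27.8%) and 8.09% of all 27025 genes. Cry1 (chr10:85185055-85185174, minus strand) and Per1 (chr11:69098723-69098848, plus strand) are shown as the separated Per and Cry genes with a match, which is in capitals.
Cry1: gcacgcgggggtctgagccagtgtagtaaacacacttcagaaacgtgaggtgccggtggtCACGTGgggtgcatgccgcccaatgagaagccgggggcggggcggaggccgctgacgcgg
Per1: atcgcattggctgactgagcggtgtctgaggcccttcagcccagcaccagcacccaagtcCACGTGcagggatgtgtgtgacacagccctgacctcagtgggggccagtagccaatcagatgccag

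Of 22 glucocorticoid-induced genes 17 had a higher mean (51.0% of all genes had), 4 rose (Tsc22d3, Arl4d, Plin4 and Sgk1, against 1.08%), and 1 fell (Lcn2, against 1.43%). The calls rested on single mice: 0 were called higher without CT replicate 2, 1 without CT replicate 3 or without KO_ST replicate 2, and 2 without WT_ST replicate 3 or without KO_ST replicate 3. In WT_ST against CT 13 of the 22 were higher, with a median of 0.06, and 1 was called higher, Fkbp5 itself (against 1.16% of all genes). In KO_ST against CT 18 were higher, with a median of 0.16, and 6 were called higher (against 1.54%), among them the 4 genes named, of which 0 were called in WT_ST. Tsc22d3, which encodes the anti-inflammatory protein GILZ, was at 19.6, 14.5 and 16.97 in CT, 16.8, 17.4 and 24.2 in WT_ST, and 24.3, 27.9 and 28.6 in KO_ST (pooled log2 difference 0.42 ± 0.18). The KO_ST mice were above all others for Tsc22d3, and it was called higher in KO_ST than in WT_ST with a log2 difference of 0.47 (against 0.946% of all genes). Plin4, a lipid droplet protein, was likewise called between them (0.33), with a pooled difference of 0.36. Sgk1, a kinase induced within hours by corticosterone, was at 16.4 to 20.6 in CT and 18.9 to 30.9 in the stressed mice (log2 difference 0.33), and none of these 4 genes was separated. Klf9, a transcription factor induced through the receptor, was separated at 39.5 to 45.8 in CT and 46.4 to 51.3 in the stressed mice, with nearly equal log2 differences of 0.21 in WT_ST and 0.20 in KO_ST. Lcn2, the acute-phase protein lipocalin, rested on CT replicate 3 at 4.53, where the other 8 mice lay between 0 and 0.802. Of the 15 genes of the glucocorticoid receptor and its chaperones 0 were called by limma (2.51% of all genes were) or edgeR. With each mouse left out limma called at most 1 of them, as lower, and their median ran from -0.006 to 0.071. Nr3c1, the receptor itself, had a log2 difference of 0.03.

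The synaptic vesicle release list lay at 6.73 to 6.82 in CT and 6.84 to 6.90 in the stressed mice, and 4 of its 30 genes were separated as higher (against 2.75% of all genes), namely Syt1, Syt2, Sv2a and Nsf. Syt1, the calcium sensor of fast release at most synapses, was at 484, 432 and 450 in CT and 482 to 528 in the stressed mice, a log2 difference of 0.16 that was not called. After quantile normalization Syt1 did not overlap between the groups, but in the deposited FPKM CT replicate 1 was slightly above the lowest stressed mouse. In the monoamine receptor list 3 of 20 genes rose and were separated (against 0.376% of all genes). Of the 20, 1 was called without CT replicate 2 or without CT replicate 3, and 2 without WT_ST replicate 1 or without KO_ST replicate 1. Adra1b, the alpha-1B adrenoceptor, was at 6.89, 5.82 and 6.13 in CT and 7.202 to 8.97 in the stressed mice and rose by 0.33 ± 0.08 (adjusted p = 0.246, limma). Htr2c, the serotonin 2C receptor, was at 6.11 to 6.59 in CT and 7.17 to 12.2 in the stressed mice (log2 difference 0.32), where the highest value belonged to KO_ST replicate 1 and the next was 8.11. Htr2c was called in 4 of the 9 fits without a mouse. Drd2, the dopamine D2 receptor, rose by 0.46 from 0.640 to 0.809 in CT to 0.818 to 2.27 in the stressed mice.
Drd2 also marks striatal projection neurons, a cell type beneath the dissected cortex. In that list 13 of 15 genes had a higher mean (51.0% of all had) and 2 rose, Tac1 and Drd2 (against 1.08%). Without CT replicate 2, 0 of the 15 were called. Its summed FPKM was 133 to 157 in CT and 143 to 182 in the stressed mice, and its part in the Drd2 difference was not tested. Of 22 GABA neuron genes 15 had a higher mean, 7 a lower one, and 1 rose (against 1.08%). This was Pvalb, the calcium buffer of fast-spiking interneurons, which rose by 0.30 but overlapped with CT, and without CT replicate 2 none of the 22 was called. Slc32a1, the vesicular GABA transporter, was separated at 23.4 to 25.9 in CT and 26.6 to 30.5 in the stressed mice. Of 15 genes of the deep cortical layers 10 were higher and 5 lower, with a median of 0.049, and 1 was called (against 1.08%), the transcription factor Bcl11b, which rose by 0.44. The direction of the deep-layer median turned to -0.012 without CT replicate 1 and to -0.0041 without CT replicate 3. Of 11 genes of the upper layers 3 were higher and 8 lower, with a median of -0.015, and 1 was called (against 1.43%), Otof, which fell by 0.51. The upper-layer median turned to 0.025 without CT replicate 3, 0.0096 without KO_ST replicate 2 and 0.0041 without CT replicate 1. Of 33 glutamate receptor and postsynaptic genes 0 were called, and of 23 immediate early genes 0, by limma, where 2.51% of all genes were. With edgeR 0 postsynaptic genes and 1 immediate early gene were called. CT replicate 1 stood apart for the immediate early genes, whose mean level on the log2 scale was 3.55 there, 3.06 and 3.05 in the other controls and 3.08 to 3.28 in the stressed mice. Without CT replicate 1, 3 immediate early genes were called higher, and 2 were called lower without CT replicate 3 or without KO_ST replicate 2.

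Of 79 ribosomal protein genes 70 had a lower mean (49.0% of all genes had) and 9 a higher one, with a median of -0.08. As lower 22 were separated (2.76% of all), yet 0 were called by limma (2.51% of all genes were) or edgeR. Without CT replicate 1, 6 were called lower, and without CT replicate 3, 2 were. Rpl29 was at 127, 143 and 143 in CT and 102 to 119 in the stressed mice (log2 difference -0.25 ± 0.05), and Rps19 was at 117 to 139 and 104 to 114. CT replicate 1 was closest to the stressed mice, and as a mean over the list CT lay at 7.17 to 7.35 and the stressed mice at 7.15 to 7.21, so the groups overlapped. The lists of heat shock, unfolded protein response, NRF2 target, neurotrophin, respiratory chain, protocadherin and ion channel genes held at most 1 gene each that was called by limma, where 2.51% of all genes were. Of the 57 protocadherins 0 were called by limma, 3 by edgeR and 4 by DESeq2, and without CT replicate 1 limma called 6 higher and 1 lower. Without the same mouse 3 of 76 respiratory chain genes and 3 of 46 channel genes were called higher.

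Some of the shared genes also differed between the stressed genotypes. Of the 150 genes called and separated 9 were also called between KO_ST and WT_ST, 7 as lower in KO_ST (1.05% of all genes were) and 2 as higher (0.946%). They comprise 7 of the 96 lower and 2 of the 54 higher genes, and 0 of them passed an adjusted p of 0.05 in that test by limma. A gene not called there was not shown to change alike in both genotypes. The larger change was in KO_ST for 73 of the 96 lower genes and 28 of the 54 higher genes, and the share over all genes was not computed. Of the 96, 9 are microglia genes, a list in which KO_ST replicate 1 was lowest for 22 of 24 genes. An effect of genotype on these counts was not tested. Among the 9 were Tnc, which encodes the matrix protein tenascin C, with log2 differences from CT of 0.15 in WT_ST and 0.42 in KO_ST, and P2ry12 at -0.26 and -0.68. Separation alone did not make a change common to the genotypes. Tmem181b-ps on chromosome 17 was separated as lower at an FPKM of 38.8 to 40.6 in CT, 33.4 to 37.9 in WT_ST and 1.86 to 2.098 in KO_ST. Of the 150 genes 5 lie on chromosome 17, the chromosome of Fkbp5, which holds 694 of the tested genes.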

How the data were processed

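RNA sequencing of mPFC tissue from 9 mice was analysed, with 3 separate mice per group and groups taken from the sample labels. The authors deposited raw read counts per gene, without normalization. Beside the counts stand FPKM values from the authors, relative to transcript length and mapped fragments, before any quantile normalization. Per the submitters' processing notes the tools were HISAT2 2.1.0, Bowtie2 2.3.4.1 and StringTie 1.3.4d with the mm10 build.

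FPKM values were transformed as log2 with a pseudocount of 1, which understates the change of low genes, and quantile normalized over the 9 mice. Genes with a mean of at least 30 reads entered limma 3.58.1 (two-sided, variances moderated along the mean level) in R 4.3.3. Benjamini-Hochberg adjustment covered all 14370 tested genes. Separate fits of 2 groups each gave the values per genotype. edgeR 4.0.16 and DESeq2 1.42.0 on read counts were alternatives, next to other pseudocounts, filters, normalizations and designs and leaving out each mouse. On data simulated for stressed against CT with 200 of 14370 genes changed by 1 on the log2 scale, limma recovered 95.5% at an adjusted p under 0.05, edgeR 94.5% and DESeq2 96.5%. False calls were 12 of 203 for limma, 11 of 200 for edgeR and 42 of 235 for DESeq2, and 0, 0 and 7 genes with no changed gene simulated. In that simulation 201 genes still met the p and fold criterion in limma.

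The members and gene lists were chosen with earlier results of these data known. Genes named are those with an adjusted p under 0.05 (none), Fkbp5, the 12 largest changes per direction among genes called and separated with a mean FPKM of at least 1, and up to 4 called or separated members of each list by p, or its most abundant members where none was called. Genes named Gm, Rik or -ps and ribosomal and globin genes were left out of the 12, and the 2 largest of them per direction were added. The text describes part of these genes, and others were picked after their values were seen. Some genes of the lists and of this selection enter the counts but are not reported here by name. A set of genes encoded by mitochondria had no member in the tables. Positions and promoter windows came from RefSeq (GRCm38.p6), where not all promoters have an entry. The plots were made in Python 3.11.15 with matplotlib 3.10.9.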

Additional observations from a re-analysis of the deposited data

Results flagged for a closer look

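Among the 6 stressed mice 8 of 104 named genes had a mouse that stood apart, judged by its gap to the next mouse as a share of the whole range of the 6 against Dixon's 95% critical value. Chance alone flags about 1 in 20 such groups. KO_ST replicate 2 had Jund, a transcription factor of the AP-1 family, at an FPKM of 0.665, where the other stressed mice had 23.2 to 26.0 (ratio 0.960). KO_ST replicate 3 was lowest for Canx, an endoplasmic reticulum chaperone (0.813), and WT_ST replicate 3 was lowest for Pvalb (0.697). KO_ST replicate 1 was lowest for the microglia gene Selplg (0.654) and the pericyte gene Rgs5 (0.630) and highest for Htr2c (0.740). The highest mouse stood apart for Slc1a3, an astrocyte glutamate transporter, in KO_ST replicate 3 (0.705), and for Asns, asparagine synthetase, in KO_ST replicate 2 (0.670).

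Fkbp5, the targeted gene, differed between the stressed genotypes, with a log2 difference of -1.04 in KO_ST against WT_ST (adjusted p = 0.00908, limma). This compares the genotypes under stress, and an effect of stress in the knock-outs could not be estimated.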

How the results depend on the processing

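The 361 genes called became 598 with a pseudocount of 0.1, 160 once a mean FPKM of 5 was required, 587 with edgeR and 646 with DESeq2, and those both called and separated went from 150 to 240, 69, 258 and 257. Leaving out each mouse gave 258 to 616 called genes and 159 to 440 called and separated, the highest counts without CT replicate 1 and, at 537 and 367, without CT replicate 3. With fewer mice separation is easier to meet. Of the called genes 42.9% were higher, but 32.2% without quantile normalization and 57.9% without CT replicate 3. Microglia genes called lower numbered 4 to 16 when mice were left out and 5 with an unmoderated test, and sterol genes called higher 3 to 17. The cause was not tested. Genes at an adjusted p under 0.05 were 4 in a fit of the 3 groups, 11 without CT replicate 3 and 1 each without WT_ST replicate 1 or 3. Of the 4 genes only Tmem181b-ps was separated, the gene given above as far lower in KO_ST than in WT_ST. Median GC content was 53.84% among genes separated as lower, 48.09% among those separated as higher and 50.49% among all tested genes. Their median transcript lengths were 2353, 2948 and 2967 bases, and why they differed was not tested. A correction for GC content, chosen after seeing the data, gave 337 called genes and 149 called and separated.

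The replicate numbers shared by the groups did not pair the mice (mean correlation of deviations -0.01, above 0.1 in 2 of 9 pairs, and 4 of 9 mice correlated best with their own number). The fit with a replicate block gave 365 called genes and 150 called and separated.

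Over 104 named genes 1869 of 2043 values kept direction and side of the threshold, 123 lost the call, 29 gained it and 22 changed sign. Of the 58 called genes 28 were called under every alternative that tested them. Sign changes came from genes near 0. Hsp90ab1 was at -0.000972 without quantile normalization, and Hba-a2 at 0.000688 with a pseudocount of 0.1 and 0.0162 after the GC correction. With mice left out the log2 differences ran from -0.193 to 0.0594 for Fkbp5, -0.00803 to 0.0242 for Hsp90ab1, -0.153 to 0.0331 for Ifi27, -0.11 to 0.31 for Mbp, -0.0774 to 0.0624 for Rgs5, -0.67 to 0.82 for Hba-a2 and -0.0153 to 0.0344 for Pcdhgc5.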
